A study of Sus scrofa with 75 samples.

Results

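The cell cycle genes described here are 39 genes looked up by name in the annotation that goes with 5 organs of adult pigs, and 37 of the 39 were found, among 35798 genes with a deposited level. The organs were lung, spleen, heart, kidney and liver of 8 male pigs (Sus scrofa) aged 12 months. Of these, 4 animals carry the code BS and 4 the code DSE. The labels explain neither code and name no treatment, genotype or diet, and all animals share species, sex and age. Libraries whose titles share a code and number, such as BS1, were read as 1 animal, which no label states outright. That gives 1 ribosomal-RNA-depleted total RNA library per animal and organ, or 40 short-read libraries, and 10 full-length PacBio libraries hold each organ once per pig group. Levels are in TPM, a unit that corrects for transcript length and for the total of the library.

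A dividing cell licenses its replication origins, copies its DNA, and then condenses, aligns and separates its chromosomes before it divides. The genes for these steps are transcribed mainly from the start of DNA synthesis to mitosis and are little transcribed in resting cells, so their RNA is widely used as a sign of proliferation. In adults, blood-forming and immune cells divide often, while heart muscle cells, liver cells and kidney tubule cells divide rarely. These are bulk tissue libraries, in which fewer cells of a type and less RNA per cell cannot be told apart.

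The 37 genes fall into 7 groups by role. A group of 9 acts in replication licensing and DNA synthesis (MCM2 to MCM7, PCNA, RRM2 and TYMS) and 9 are cyclins and mitotic kinases. The other groups are the 2 partners of the anaphase-promoting complex (CDC20 and UBE2C), 3 genes of chromosome structure and the chromosomal passenger complex (TOP2A, BIRC5 and CDCA8), 4 kinetochore genes, 5 spindle assembly genes and 5 genes of the spindle midzone and cytokinesis. The names MKI67 and AURKA, for the proliferation antigen Ki-67 and a spindle pole kinase, are not used in the annotation. The RefSeq locus of MKI67 in assembly Sscrofa11.1 is covered over 98.2% of its length by an unnamed gene, ENSSSCG00000026302, which averaged 7.28 ± 3.34 TPM in lung, 11.1 ± 4.97 in spleen, 0.252 ± 0.175 in heart, 0.221 ± 0.0755 in kidney and 0.421 ± 0.550 in liver (SD, n = 8 each). The unnamed gene over the AURKA locus, ENSSSCG00000007493, averaged 5.91 ± 2.37 TPM in lung, 7.14 ± 2.30 in spleen, 1.30 ± 0.291 in heart, 0.817 ± 0.156 in kidney and 0.784 ± 0.443 in liver. Both are given for reference only and are left out of every count.

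The organ labels held against marker genes. For each organ the summed TPM of its 3 identity markers was higher in its own 8 libraries than in any other library, with at least 24545 TPM for the heart markers in heart. Mitochondrial transcripts took 33.9% to 46.0% of TPM in heart, 18.5% to 27.1% in kidney and 4.8% to 10.5% in the libraries of the other 3 organs, and all TPM values carry that difference. One liver library, BS1, stood apart in the cell cycle genes, and 2 lung libraries, BS1 and BS2, held the top of many lung ranges. Several results that rest on them are given with and without them, and the wider pathway lists were not run without them.

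The cell cycle genes had their highest levels in lung and spleen. Spleen had the highest mean of the 5 organs for 25 of the 37 genes, lung for 11 and heart for 1, GTSE1. The lowest mean was in heart for 24, in liver for 8 and in kidney for 5. GTSE1 was singled out because heart had its highest level, so it is left out of the organ counts that follow, which run over 36 genes. Each organ was set against the mean of the other 4 with limma on log2(TPM + 1), with p-values adjusted by Benjamini-Hochberg over all 18977 genes that averaged at least 0.1 TPM, and a call means an adjusted p under 0.05. All 37 genes passed that filter, with CCNA2 listed at 0 in 17 of the 40 libraries.

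**Figure D1:**
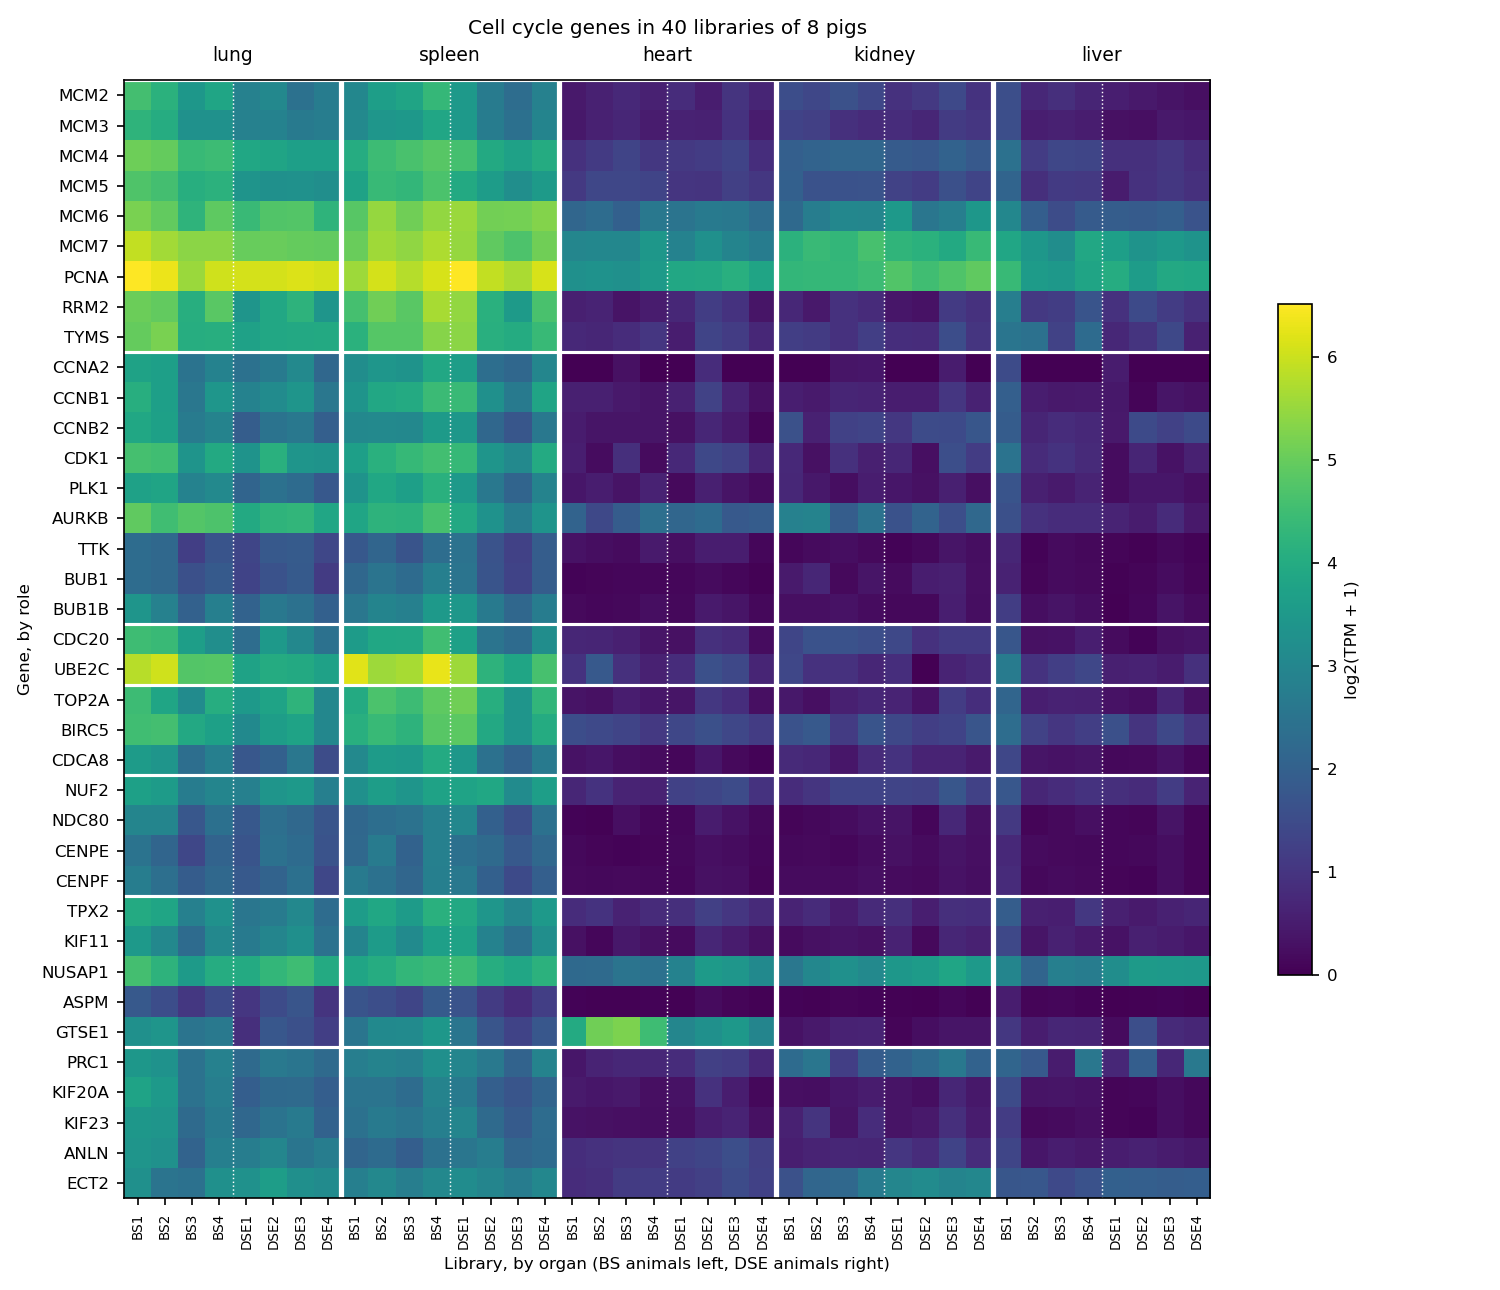
Levels of the 37 cell cycle genes in 40 libraries, grouped by role down the page and by organ across it, on a log2(TPM + 1) colour scale. The lung and spleen columns are brighter than the other organs for nearly every gene, and GTSE1 is the 1 gene whose heart columns are its brightest.

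All 36 genes were higher in lung than in the other organs, where 68.2% of all tested genes were called higher in lung and 15.2% lower, and their median difference was 1.61 on the log2 scale beside 0.53 for all genes. A difference of at least 1 on the log2(TPM + 1) scale was called for 32 of the 36 in lung, beside 26.1% of all genes. That scale gives low values less weight, so a low gene can miss this limit with more than a 2-fold difference in TPM. In spleen, too, all 36 were higher, where 52.0% of all genes were and 28.1% were lower, with a median of 1.89 beside 0.23. There 32 were called with a difference of at least 1, beside 17.3% of all genes. In heart all 36 were lower, where 70.8% of all genes were lower, with a median of -1.40 beside -0.55. In liver all 36 were lower beside 75.1% of all genes, with a median of -1.21 beside -0.64, so the direction in heart and liver was that of most genes and the size was larger. Median-ratio scaling matches libraries on their typical gene. With it 34 were higher in lung and 36 in spleen, beside 33% and 33.3% of all genes. With the same scaling 33 were lower in heart and 31 in liver, beside 45.7% and 45% of all genes. ANLN in heart and NUSAP1, PRC1 and ECT2 in liver turned positive. In the main fit 33 of the 36 were lower in kidney, beside 31.4% of all genes, with a median of -0.92 beside 0.10. There 1 gene, ECT2, was higher, beside 44.8% of all genes.

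For 31 of the 36 genes every lung and spleen value lay above every heart, kidney and liver value, which held for 8.94% of all genes. The 5 exceptions were CCNB2, AURKB, NUSAP1, PRC1 and ECT2. CCNB2, a B-type cyclin, overlapped only through the BS1 liver library, which read 2.74 TPM against 2.33 TPM in the lowest spleen library. Without that library the count was 32 of 36, beside 9.36% of all genes. The ratio of the lung and spleen mean to the heart, kidney and liver mean ran from 2.20 for NUSAP1 and 2.397 for ECT2 to 31.0 for UBE2C and 43.7 for CCNA2.

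Among the replication genes, PCNA, the sliding clamp that holds DNA polymerase on its template, had the highest level. Its lowest, median and highest values were 45.5, 67.8 and 89.7 TPM in lung, 46.4, 63.5 and 90.7 TPM in spleen, 8.65, 11.9 and 16.3 TPM in heart, 18.8, 21.7 and 29.2 TPM in kidney, and 10.2, 13.3 and 20.0 TPM in liver. Lung and spleen overlapped almost entirely and no library of the other 3 organs reached them. MCM3, a subunit of the MCM helicase that unwinds the template, had the lowest level of the replication group and averaged 9.32 ± 4.68 TPM in lung, 8.46 ± 2.98 in spleen, 0.535 ± 0.179 in heart, 1.01 ± 0.318 in kidney and 0.565 ± 0.579 in liver. MCM7, another helicase subunit, kept more of its level outside lung and spleen, with 39 ± 10.7 TPM in lung, 38.1 ± 9.49 in spleen, 7.28 ± 1.33 in heart, 18.7 ± 2.75 in kidney and 10.8 ± 2.11 in liver. The MCM7 gene overlaps AP4M1 and the microRNA genes MIR25 and MIR106B, and 9 more of the 37 overlap another annotated gene (MCM2, TYMS, CCNA2, CDK1, PLK1, NDC80, NUSAP1, KIF20A and ANLN). The strand used in counting is not given in the sources used here, so reads of overlapping genes cannot be told apart. TYMS, which makes the DNA precursor thymidylate, averaged 19.2 ± 8.90 TPM in lung, 25.3 ± 10.2 in spleen and 0.865 ± 0.367 in heart.

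CDK1, the kinase that starts mitosis with cyclin B, had lowest, median and highest values of 9.20, 12.1 and 23.1 TPM in lung, 7.40, 15.7 and 22.4 TPM in spleen, 0.145, 0.643 and 1.67 TPM in heart, 0.202, 0.650 and 1.94 TPM in kidney, and 0.160, 0.656 and 4.63 TPM in liver. Its partner CCNA2, cyclin A, averaged 6.99 ± 3.41 TPM in lung and 8.40 ± 3.53 in spleen and was listed at 0 in 17 of the 24 libraries of the other 3 organs. AURKB, the Aurora kinase of the chromosomal passenger complex, had the highest level in this group, with 20.9 ± 5.76 TPM in lung, 13.8 ± 5.73 in spleen, 3.05 ± 0.811 in heart, 3.87 ± 1.75 in kidney and 0.813 ± 0.514 in liver. TTK, a spindle checkpoint kinase, had the lowest mean over all libraries, with 2.44 ± 0.966 TPM in lung, 2.88 ± 1.03 in spleen and at most 0.621 TPM in any library of the other organs. PLK1, a kinase of mitotic entry and exit, averaged 6.66 ± 4.06 TPM in lung and 9.63 ± 4.52 in spleen and stayed at or below 2.22 TPM elsewhere.

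UBE2C, the enzyme that passes ubiquitin to substrates of the anaphase-promoting complex, averaged 28.4 ± 20.6 TPM in lung, 43.6 ± 24.3 in spleen, 1.24 ± 0.745 in heart, 0.771 ± 0.453 in kidney and 1.47 ± 1.69 in liver. CDC20, which brings substrates to that complex, averaged 11.01 ± 6.78 TPM in lung and 11.2 ± 5.79 in spleen, with means of 0.498 to 1.584 TPM in the other organs. TOP2A, the topoisomerase that untangles sister chromosomes, had lowest, median and highest values of 7.06, 12.9 and 21.3 TPM in lung, 9.57, 19.7 and 33.3 TPM in spleen, 0.208, 0.299 and 1.07 TPM in heart, 0.203, 0.536 and 1.23 TPM in kidney, and 0.191, 0.492 and 3.34 TPM in liver. The 3.34 TPM was the BS1 liver library. BIRC5 (survivin) and CDCA8 (borealin), both of the passenger complex, averaged 13.8 ± 5.93 and 5.36 ± 3.31 TPM in lung, and 18.5 ± 6.44 and 8.31 ± 3.90 TPM in spleen. In every library of heart, kidney and liver BIRC5 was at or below 4.06 TPM and CDCA8 at or below 1.61 TPM.

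Of the kinetochore genes, NUF2, a subunit of the complex that grips spindle microtubules, averaged 8.43 ± 2.56 TPM in lung and 11.02 ± 2.07 in spleen, and CENPE, a motor that moves chromosomes to the equator, 3.19 ± 1.09 in lung and 4.07 ± 1.2 in spleen. In the other 3 organs NUF2 had means of 1.02 to 1.43 TPM and CENPE of 0.105 to 0.185 TPM. In the spindle group NUSAP1, which bundles microtubules near chromosomes, was unlike ASPM, which focuses spindle poles. NUSAP1 averaged 17.1 ± 3.94 TPM in lung, 17.0 ± 3.04 in spleen, 6.36 ± 2.73 in heart, 9.12 ± 2.63 in kidney and 7.70 ± 2.7 in liver, so its kidney and lung ranges overlapped. ASPM had means of 1.68 ± 0.596 TPM in lung and 1.74 ± 0.618 in spleen and no more than 0.428 TPM in any library of the other organs.

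Of the 5 midzone and cytokinesis genes 4 had their highest mean in lung. KIF20A and KIF23, motors of the central spindle, averaged 5.84 ± 3.73 and 5.67 ± 2.68 TPM in lung and 4.24 ± 1.40 and 4.71 ± 1.34 TPM in spleen. ANLN, a scaffold of the contractile ring, averaged 6.36 ± 2.05 TPM in lung and 4.06 ± 0.947 in spleen. ECT2, the exchange factor that switches on the ring's GTPase, averaged 7.85 ± 2.28 TPM in lung, 6.73 ± 0.801 in spleen, 5.398 ± 2.11 in kidney, 2.51 ± 0.445 in liver and 1.22 ± 0.327 in heart. Kidney therefore came next to spleen for ECT2, and its range of 2.05 to 7.77 TPM overlapped the lung and spleen ranges. The kidney call was 0.35 ± 0.10 on the log2 scale (SE, adjusted p = 0.0016, limma), and it did not pass with median-ratio scaling or in BS animals alone.

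The contrast of lung with spleen was added after the organ levels had been seen. It called 2 of the 36 genes higher in lung, beside 36.7% of all tested genes, and 10 lower in lung, beside 19.7%, with a median of -0.13 beside 0.10 for all genes. AURKB (log2 difference 0.63 ± 0.16, adjusted p = 0.0011) and ANLN (0.51 ± 0.14, adjusted p = 0.0023) were the higher pair. The lower ones were BIRC5, BUB1, CCNB1, CDCA8, MCM6, NUF2, PLK1, TOP2A, TPX2 and UBE2C, and they included all 3 genes of the chromosome structure and passenger group. TOP2A differed by -0.61 ± 0.22 (adjusted p = 0.021) and MCM6 by -0.57 ± 0.17 (adjusted p = 0.0054). The AURKB call was lost in BS animals alone, the ANLN call in DSE animals alone, and the TOP2A call in either group alone. The count of lower genes was 1 in BS animals alone, beside 14.3% of all genes, and 8 in DSE animals alone, beside 16.3%. Leaving out 1 animal at a time gave 2 to 15 lower, beside 17.3% to 20% of all genes. The count was 2 without DSE1, 3 without BS4, 4 without DSE4 and 5 without BS3. These counts and the 1 in BS animals alone were below the shares of all genes. With median-ratio scaling the split was 1 higher and 16 lower in lung, beside 26.5% and 32.7% of all genes.

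Libraries of 1 organ differed from each other across most of the genes at once. In lung the BS1 library held the highest value for 31 of the 36 genes and BS2 for 4, and DSE4 held the lowest for 20. In spleen BS4 held the highest for 23 and DSE1 for 11, and DSE3 held the lowest for 32. In liver BS1 held the highest for 32, and its values were at the median 5.18 times those of the organ's median library. The summed level of the 36 genes was 734, 654, 373 and 471 TPM in BS lungs, against 325, 393, 401 and 305 TPM in DSE lungs. In spleens the sums were 460, 585, 540 and 752 TPM in BS pigs, against 670, 381, 296 and 446 TPM in DSE pigs. The lung sums overlapped through BS3, and the spleen sums overlapped through DSE1.

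The BS1 liver library summed to 126 TPM, against 45.6 to 63.6 TPM in the other 7 livers. Its neutrophil markers summed to 95.3 TPM, against 5.7 to 49.6 TPM in the other livers, with 5 of 7 listed markers found. Its T and NK cell markers summed to 67.2 TPM, against 33.7 to 56.2 TPM. Its red cell markers summed to 1378 TPM, inside the 134 to 1866 TPM of the other livers. The part of these cells in the result was not tested.

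**Figure D2:**
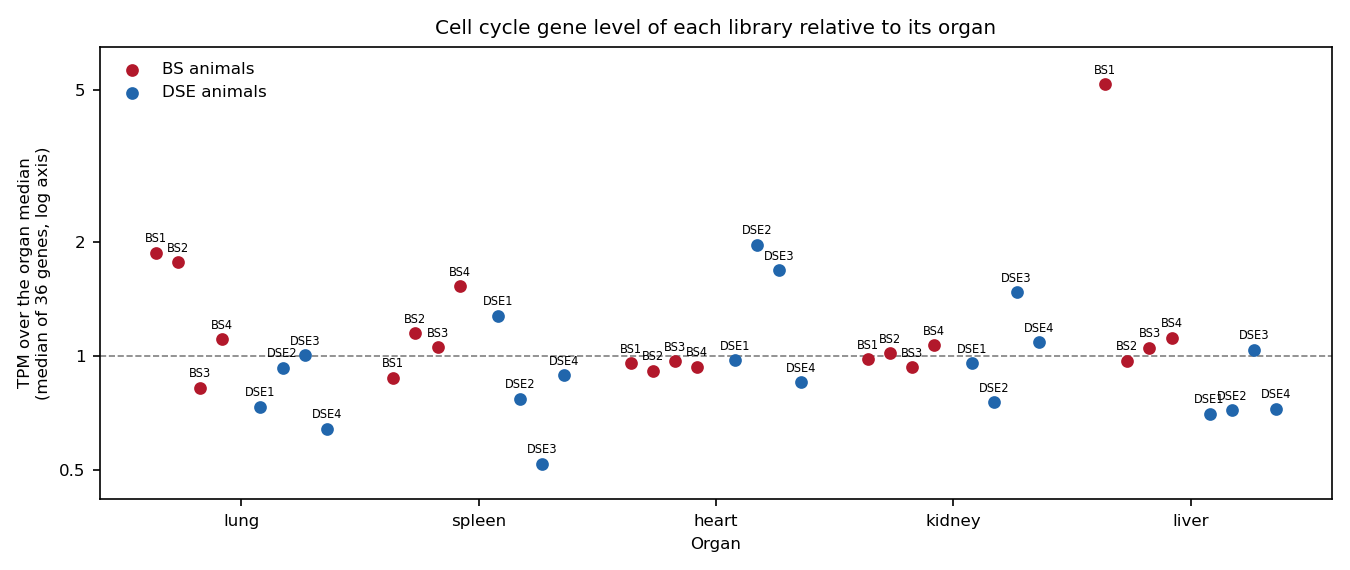
Level of each library relative to its organ, as the median over 36 genes of TPM divided by the organ's median TPM, on a log axis with BS left of DSE in each organ. The BS1 liver stands at 5.18, the BS1 and BS2 lungs at 1.87 and 1.76, and the DSE3 spleen is lowest at 0.52.

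BS pigs had higher levels of many of these genes than DSE pigs in lung. There 19 of the 37 genes, GTSE1 included, were called higher in BS, beside 15% of all tested genes, and 1 was called lower, beside 30.3%. The median difference was 0.59 on the log2 scale beside -0.12 for all genes, and 34 of the 37 differences were positive. For 12 of the 37 every BS lung lay above every DSE lung, which held for 11.7% of all genes. The calls covered 7 of the 9 replication genes, 4 of the 9 cyclins and kinases, both anaphase-promoting complex partners, 2 of the 3 chromosome structure and passenger genes, 0 of the 4 kinetochore genes, 2 of the 5 spindle genes and 2 of the 5 midzone genes.

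MCM2, a helicase subunit, read 22.9, 17.0, 9.94 and 13.2 TPM in BS lungs, against 6.25, 7.23, 4.42 and 5.68 TPM in DSE lungs. The groups did not overlap, and MCM2 was 1.24 ± 0.24 higher on the log2 scale (adjusted p = 8.8e-05). MCM5, of the same helicase, read 25.4, 22.6, 16.0 and 17.1 TPM in BS lungs, against 9.31, 8.68, 8.85 and 8.26 TPM in DSE lungs, again without overlap (1.098 ± 0.20, adjusted p = 5.1e-05). UBE2C read 55.2, 65.1, 26.2 and 26.6 TPM in BS lungs, against 12.4, 15.1, 14.5 and 12.2 TPM in DSE lungs. The BS1 and BS2 lungs were far above the rest, and BS3 and BS4 were still above every DSE lung (1.49 ± 0.34, adjusted p = 6.4e-04). PLK1 gave 12.3, 13.1, 6.45 and 7.36 TPM in BS lungs, against 3.29, 4.41, 3.88 and 2.49 TPM in DSE lungs.

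PCNA, TOP2A and CDK1 were not called in lung. PCNA read 89.7, 79.6, 45.5 and 64.6 TPM in BS lungs, against 68.0, 67.6, 71.3 and 67.2 TPM in DSE lungs (-0.02 ± 0.17, adjusted p = 0.97). TOP2A read 21.3, 13.2, 7.79 and 15.6 TPM in BS lungs, against 10.4, 12.7, 17.9 and 7.06 TPM in DSE lungs, and the groups overlapped over most of their ranges. CDK1 read 23.1, 22.1, 9.36 and 14.5 TPM in BS lungs, against 9.20, 16.5, 9.62 and 9.24 TPM in DSE lungs. ECT2 was the gene called lower, with 8.59, 4.70, 4.39 and 8.68 TPM in BS lungs, against 8.91, 11.3, 8.47 and 7.77 TPM in DSE lungs. The unnamed gene over the MKI67 locus read 13.2, 9.47, 4.74 and 8.82 TPM in BS lungs, against 5.39, 5.29, 8.6 and 2.77 TPM in DSE lungs, with overlap through BS3, which lay below 3 of the DSE lungs. The ECT2 groups overlapped too (-0.46 ± 0.17, adjusted p = 0.031), and the call was lost with median-ratio scaling, with a pseudocount of 0.1 TPM, and without any 1 of BS2, BS3, DSE1, DSE2 or DSE3.

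The lung result leaned on 2 libraries. Without the BS1 and BS2 lungs, 5 of the 37 genes were called, all higher in BS, and the median difference was 0.18. That count is near the background, since 11.7% of all genes were called higher without those libraries. GTSE1, MCM2, MCM5 and PLK1 were among them, and UBE2C was not (0.92, adjusted p = 0.075). Leaving out 1 animal at a time gave 14 to 24 genes higher in BS, beside 12.4% to 14.9% of all genes. It gave 0 or 1 lower, beside 23.3% to 33.2% of all genes. The markers of the lung itself summed to 37433, 57671, 27723 and 17743 TPM in BS lungs, against 23132, 16181, 16436 and 28972 TPM in DSE lungs, with 2 of 3 called higher. The BS1 and BS2 lungs had the 2 highest of these sums. Markers of other cells were read beside the same 15% of all genes higher and 30.3% lower. Neutrophil markers summed to 1897, 3465, 2424 and 940.5 TPM in BS lungs, against 987, 793, 670 and 1080 TPM in DSE lungs, and 1 of the 5 found was called, S100A8, higher in BS. B cell markers summed to 19.7, 13.5, 51.0 and 59.9 TPM in BS lungs, against 64.8, 86.9, 50.5 and 49.6 TPM in DSE lungs, with 3 of 5 called lower. Plasma cell markers summed to 445 to 1615 TPM in BS lungs, against 1239 to 7872 TPM in DSE lungs, with 2 of 6 called lower. Germinal centre markers summed to 41.1 to 61.3 TPM in BS lungs, against 54.1 to 85.8 TPM in DSE lungs, with 2 of 6 called lower. For plasma cells and germinal centres that is about the share of all genes. Red cell markers summed to 1795 to 13602 TPM in BS lungs, against 1093 to 2722 TPM in DSE lungs, with 1 of 7 called higher, again about the share of all genes. T and NK cell markers overlapped, with 1 of 7 called higher and 2 lower. The part of these cell types in the lung result was not tested.

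In spleen 11 of the 37 genes were called higher in BS, beside 10.2% of all genes, and 0 lower at an adjusted p under 0.05 in limma, beside 14.8%. The median was 0.39 beside -0.04 for all genes, and 32 of 37 differences were positive. No gene of the 37 had every BS spleen above every DSE spleen, a pattern seen in 9.50% of all genes. PLK1 read 9.24, 13.8, 11.9 and 16.7 TPM in BS spleens, against 10.5, 5.07, 3.27 and 6.59 TPM in DSE spleens (0.98 ± 0.24, adjusted p = 0.0029). UBE2C read 73.7, 46.2, 49.7 and 78.1 TPM in BS spleens, against 46.3, 17.6, 13.2 and 23.7 TPM in DSE spleens (1.38 ± 0.34, adjusted p = 0.0033). In both genes DSE1 alone reached the BS range, and the UBE2C call was lost with a pseudocount of 0.1 TPM. The other calls were GTSE1, AURKB, MCM2, MCM5, CDC20, CDCA8, BUB1, ASPM and CENPF.

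The spleen count was 4 without BS4, beside 9.15% of all genes, and 4 without DSE3, beside 7.83%. It was 7 without DSE2, beside 8.95%, 17 without DSE1, beside 8.5%, and 4 with a pseudocount of 0.1 TPM, beside 9.01%. The counts of 4 are near those shares. Neutrophil markers were called higher in BS spleens for 5 of 5 found, with sums of 856, 155, 54.7 and 320 TPM in BS spleens, against 46.9, 38.9, 60.3 and 19.3 TPM in DSE spleens. Red cell markers summed to 1060 to 27857 TPM in BS spleens, against 703 to 6824 TPM in DSE spleens, with 3 of 7 called higher. B cell markers summed to 287 to 769 TPM in BS spleens, against 344 to 617 TPM in DSE spleens, with 2 of 5 called higher. Germinal centre markers had 0 of 6 called in either direction by limma. Germinal centre markers summed to 58.6, 113, 83.1 and 109 TPM in BS spleens, against 107, 74.8, 57.6 and 68.9 TPM in DSE spleens. The part of these cells in the spleen result was not tested.

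**Figure D3:**
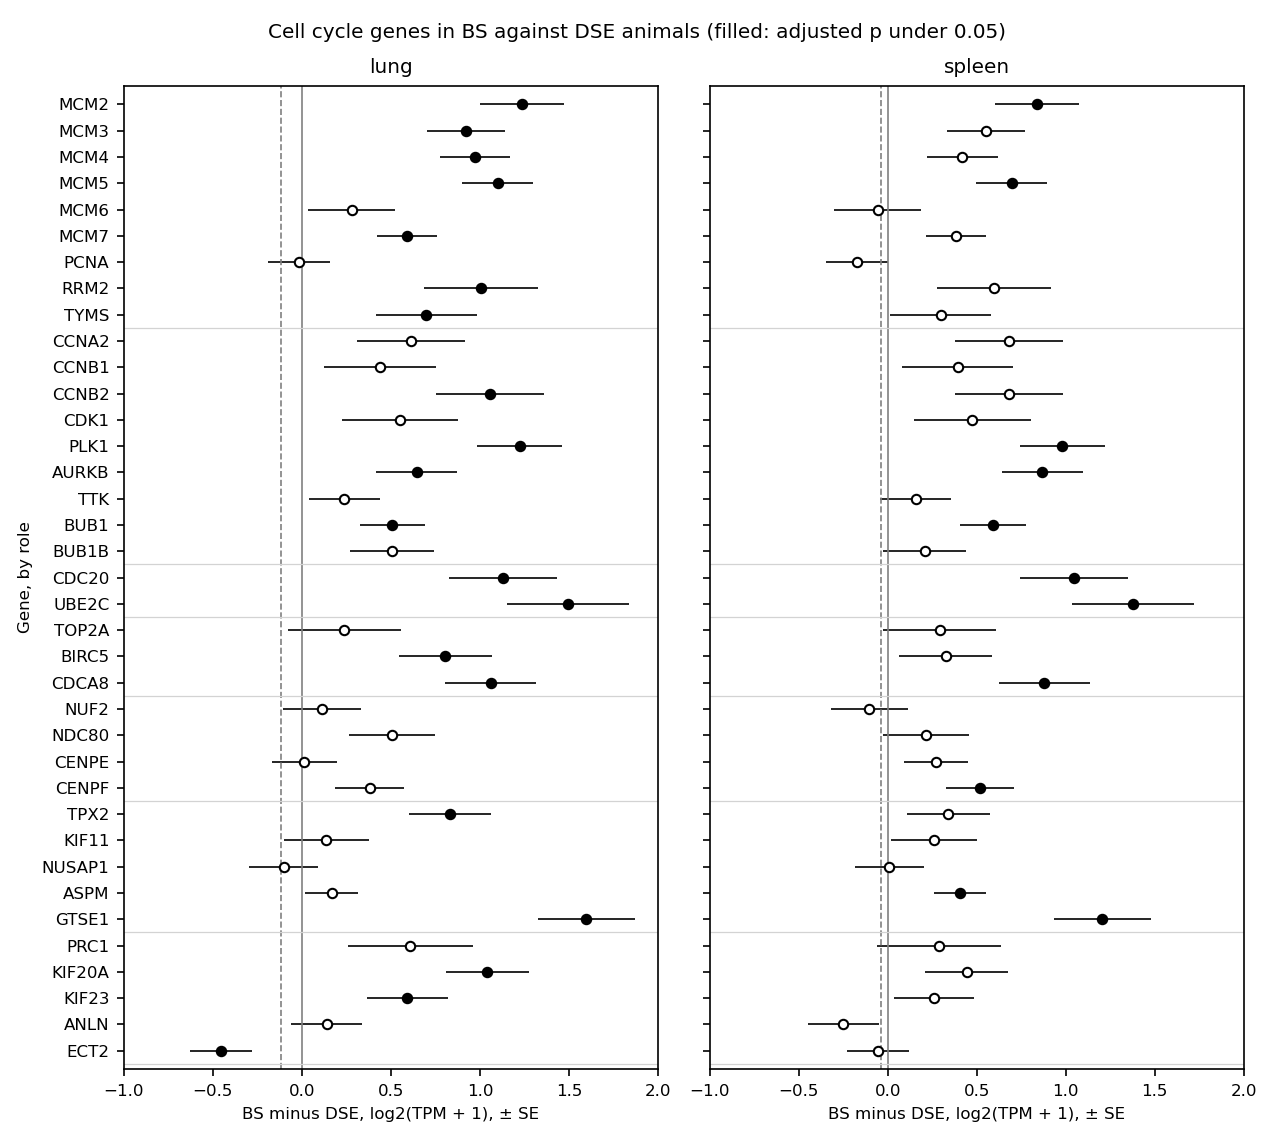
BS minus DSE differences with their standard errors on the log2(TPM + 1) scale for each of the 37 genes in lung and spleen, with filled points for an adjusted p under 0.05 and a dashed line at the median of all genes. In lung 34 of the 37 points lie above 0, with 19 calls above and 1 below, and in spleen 32 lie above 0, with 11 calls.

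Outside lung and spleen few of the genes were called between the pig groups in the main fit, and in liver that count depended on the pseudocount. In heart 1 gene, GTSE1, was higher in BS, beside 13.4% of all genes, and 2 were lower, beside 5.95%. NUSAP1 read 3.67, 3.76, 4.70 and 4.43 TPM in BS hearts, against 6.38, 10.7, 9.74 and 7.49 TPM in DSE hearts, with no overlap (-0.88 ± 0.20, adjusted p = 0.0012). PCNA read 8.73, 8.96, 8.65 and 10.8 TPM in BS hearts, against 13.9, 14.2, 16.3 and 13.0 TPM in DSE hearts, also with no overlap (-0.58 ± 0.17, adjusted p = 0.017), a call that was lost without DSE3. Mitochondrial transcripts took 33.9% to 36.1% of TPM in BS hearts, against 38.3% to 46.0% in DSE hearts, and with TPM recomputed without the mitochondrial genome 5 genes were called in heart, 1 higher and 4 lower, beside 9.48% and 14.5% of all genes.

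In kidney 1 gene was higher in BS, beside 17.2% of all genes, and 2 were lower, beside 15.4%. ECT2 read 2.05, 3.46, 3.56 and 5.52 TPM in BS kidneys, against 7.01, 7.77, 6.66 and 7.15 TPM in DSE kidneys, with no overlap (-0.86 ± 0.17, adjusted p = 2.8e-04). NUSAP1 was the other lower gene (-0.62 ± 0.20, adjusted p = 0.014) and AURKB the higher one (0.67 ± 0.23, adjusted p = 0.023). The AURKB call was lost without any 1 of BS1, BS2, DSE1 or DSE3, and the NUSAP1 call without BS1 or DSE3.

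In liver 2 genes were higher in BS, beside 14% of all genes, and 1, NUSAP1, was lower, beside 6.84% (-0.79 ± 0.20, adjusted p = 0.0031). TYMS read 4.78, 4.39, 1.45 and 3.82 TPM in BS livers, against 0.660, 0.962, 1.65 and 0.515 TPM in DSE livers, and BS3 fell inside the DSE range (1.202 ± 0.28, adjusted p = 0.0020). TYMS lies over part of ENOSF1. MCM4, the other higher gene, read 4.37, 1.24, 1.61 and 1.55 TPM in BS livers, against 0.883, 0.878, 1.05 and 0.776 TPM in DSE livers (0.66 ± 0.20, adjusted p = 0.015), and its call was lost without BS1 or DSE4. In liver 32 of the 37 differences were positive, with a median of 0.27 beside 0.01 for all genes, the BS1 library included. For 10 of the 37 genes every BS liver lay above every DSE liver, beside 14.1% of all genes. With a pseudocount of 0.1 TPM, which gives low values more weight, the liver count was 14 higher and 1 lower, beside 16.1% and 7.64% of all genes. That setting gave 14 higher in lung, beside 13.3% of all genes, and 4 in spleen, beside 9.01%.

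The test of a different BS to DSE difference among the 5 organs passed for 2 of the 37 genes, beside 8.05% of all genes. These were GTSE1 (adjusted p = 0.0054) and MCM2 (adjusted p = 0.044). For the other 35 genes a difference between organs in the pig group contrast was not shown. The test is given on log2(TPM + 1) only, a scale that gives low values less weight. In kidney GTSE1 differed by 0.24 on that scale and by 0.79 with a pseudocount of 0.1 TPM. In liver it differed by -0.08 and 0.0099. MCM2 read 0.586 to 1.94 TPM in BS livers, against 0.204 to 0.453 TPM in DSE livers, without overlap. How far the GTSE1 and MCM2 results depend on the scale was not tested.

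Transcripts of 3 genes that start more than 1000 bases apart were compared, chosen after their values had been seen. AURKB (chr12:53410177-53423246 in susScr11, minus strand) has an upstream start used by 4 transcripts and a downstream start used by 2. The upstream start averaged 10.3 ± 2.19 TPM in lung, 2.45 ± 0.49 in spleen, 2.68 in heart, 2.61 in kidney and 0.305 in liver. Its lowest lung library, at 6.08 TPM, was above its highest spleen library, at 3.38 TPM. The downstream start averaged 10.6 ± 5.53 TPM in lung and 11.3 ± 5.81 in spleen, against 0.366 in heart, 1.27 in kidney and 0.508 in liver. So lung and spleen were apart in the upstream start and overlapped in the downstream start, which in most libraries of the other 3 organs was low.

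NUSAP1 (chr1:129992798-130065629, minus strand), one of the exceptions above, also has separate starts, 3 in all. The furthest downstream averaged no more than 0.0155 TPM in any organ and is left aside, and the middle one is called downstream here. The NUSAP1 downstream-start transcript, found by long reads, read 10.9, 10.01, 3.49 and 5.73 TPM in BS lungs, against 1.25, 2.37, 2.13 and 1.47 TPM in DSE lungs. It averaged 4.0 TPM in spleen, 0.0483 in heart, 0.270 in kidney and 0.0797 in liver. Its upstream-start transcripts, 5 in all, averaged 12.4 TPM in lung, 13.0 in spleen, 6.31 in heart, 8.84 in kidney and 7.61 in liver, so lung and spleen overlapped in both starts. These read 11.8, 7.55, 7.17 and 9.79 TPM in BS lungs, against 13.5, 16.5, 19.5 and 13.4 TPM in DSE lungs. The downstream transcript was thus higher in every BS lung and the upstream ones lower in every BS lung, and the gene total overlapped between the groups. In CCNB2 a downstream-start transcript averaged 1.09 TPM in kidney and 0.45 in liver and was listed at 0 in every lung and spleen library. The lower NUSAP1 levels of BS hearts, kidneys and livers given above lay almost wholly in its upstream-start transcripts. How reads shared by transcripts are divided is an estimate, and NUSAP1 overlaps NDUFAF1 and OIP5.

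**Figure D4:**
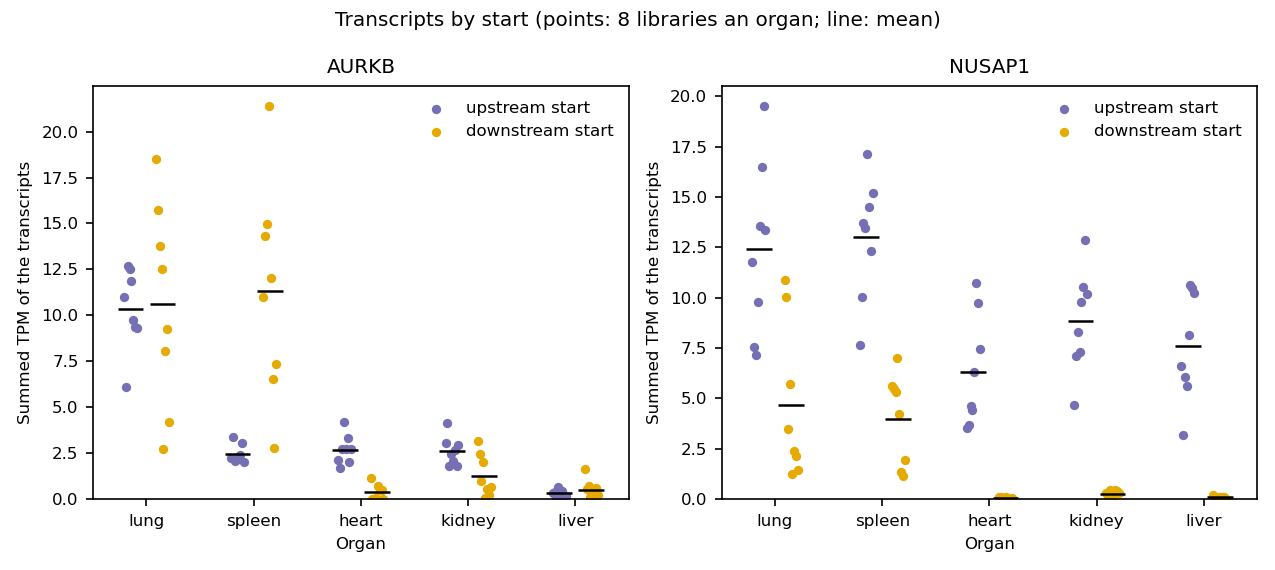
Summed TPM of upstream-start and downstream-start transcripts of AURKB and NUSAP1 in the 8 libraries of each organ, with a line at the mean. In AURKB every lung lies above every spleen for the upstream start, and in NUSAP1 the heart, kidney and liver levels lie almost wholly in the upstream start.

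GTSE1, a microtubule-associated protein of late cell cycle that also restrains p53, was the gene with another organ pattern. Its values were 14.8, 33.7, 36.6 and 21.4 TPM in BS hearts, against 6.89, 8.74, 10.2 and 6.75 TPM in DSE hearts. In lung they were 8.66, 9.63, 4.72 and 5.23 TPM in BS pigs, against 0.854, 2.40, 2.01 and 1.31 TPM in DSE pigs, and in spleen 4.81, 7.48, 7.62 and 9.91 TPM in BS pigs, against 4.84, 2.30, 1.49 and 2.41 TPM in DSE pigs. Kidney libraries ran from 0.0697 to 0.559 TPM and liver libraries from 0.140 to 1.96 TPM. The order of the means was heart at 17.4 ± 12.0, spleen at 5.11 ± 3.01, lung at 4.35 ± 3.34, liver at 0.772 ± 0.547 and kidney at 0.316 ± 0.168 TPM. Every BS heart lay above every library of the other organs, while the DSE hearts overlapped the BS lungs and spleens. Spleen and lung overlapped over nearly all of their ranges, and liver and kidney overlapped in part.

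Of the 5 organ means of GTSE1 added together, heart held 62.2%, and for the other 36 genes heart held 0.8% to 11.1%, with a median of 2.4%. With heart set aside, its spleen and lung means were above its liver and kidney means, as they were for each of the other 36. The 5 genes whose shares over the 5 organs were nearest to those of GTSE1 were TPM2, SGCD, FBXL22, DTNA and BAG2. The distance, taken as the summed absolute difference of shares over 2, was 3.16 percentage points for TPM2 and 6.08 for BAG2, and it was 51.1 to 62.8 points for the other 36 cell cycle genes. Heart held 59.4% to 67.0% of the level of these 5.

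GTSE1 was higher in BS than in DSE pigs in heart, lung and spleen. BS exceeded DSE by 1.53 ± 0.27 on the log2 scale in heart (adjusted p = 9.2e-05), by 1.60 ± 0.27 in lung (adjusted p = 2.5e-05) and by 1.21 ± 0.27 in spleen (adjusted p = 0.0015). Those were the smallest adjusted p of the 37 genes in each of the 3 organs. No call was made in kidney (0.24 ± 0.27, adjusted p = 0.59) or liver (-0.08 ± 0.27, adjusted p = 0.98). In hearts and lungs the groups did not overlap, and in spleens DSE1 fell at the foot of the BS range. Over the alternatives the heart difference stayed between 1.35 and 1.77 and was called in 14 of 14.

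The gene model of GTSE1 holds 2 transcripts at chr5:3227811-3242789 on the minus strand of susScr11, under the identifier ENSSSCG00000000002. The Ensembl transcript has 11 exons, 2393 bases and a coding part of 2013 bases, which is 671 codons with the stop. The long-read transcript has 6 exons and 1312 bases and starts 8122 bases downstream, inside exon 5 of the Ensembl model. Of its bases 95.5% lie in Ensembl exons. Its coding part has 669 bases, of which 615 are Ensembl coding bases in the same frame and 54 are not coding in the Ensembl model. The annotated locus is shorter than that of RefSeq, which runs on the same strand to 3246679.

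The long-read transcript held 77.1% of GTSE1 TPM in heart, with libraries from 69.2% to 85.1%, and 60.0% in lung, 57.8% in spleen, 52.4% in kidney and 54.1% in liver. The Ensembl transcript alone was also highest in heart, with a mean of 3.98 TPM, against 1.74 TPM in lung and 2.15 TPM in spleen. It ran from 4.04 to 8.75 TPM in BS hearts, against 1.31 to 2.69 TPM in DSE hearts. By this split the heart level was carried by both transcripts and more by the short one. The split is an estimate, since 95.5% of the bases of the short transcript lie in Ensembl exons. Full-length reads give GTSE1 little depth, with 1 read in the BS heart library and 1 in the DSE spleen library, and counting error at such numbers allows no comparison.

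No annotated gene overlaps GTSE1. The nearest neighbours on the same strand are TRMU, 3430 bases away downstream, and TTC38, 5553 bases away upstream. TRMU, a tRNA-modifying enzyme, averaged 8.36 ± 1.70 TPM in heart and 16.1 TPM in liver, and TTC38 averaged 4.36 TPM in heart and 50.8 TPM in liver. Neither neighbour had the heart-first order of GTSE1.

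**Figure D5:**
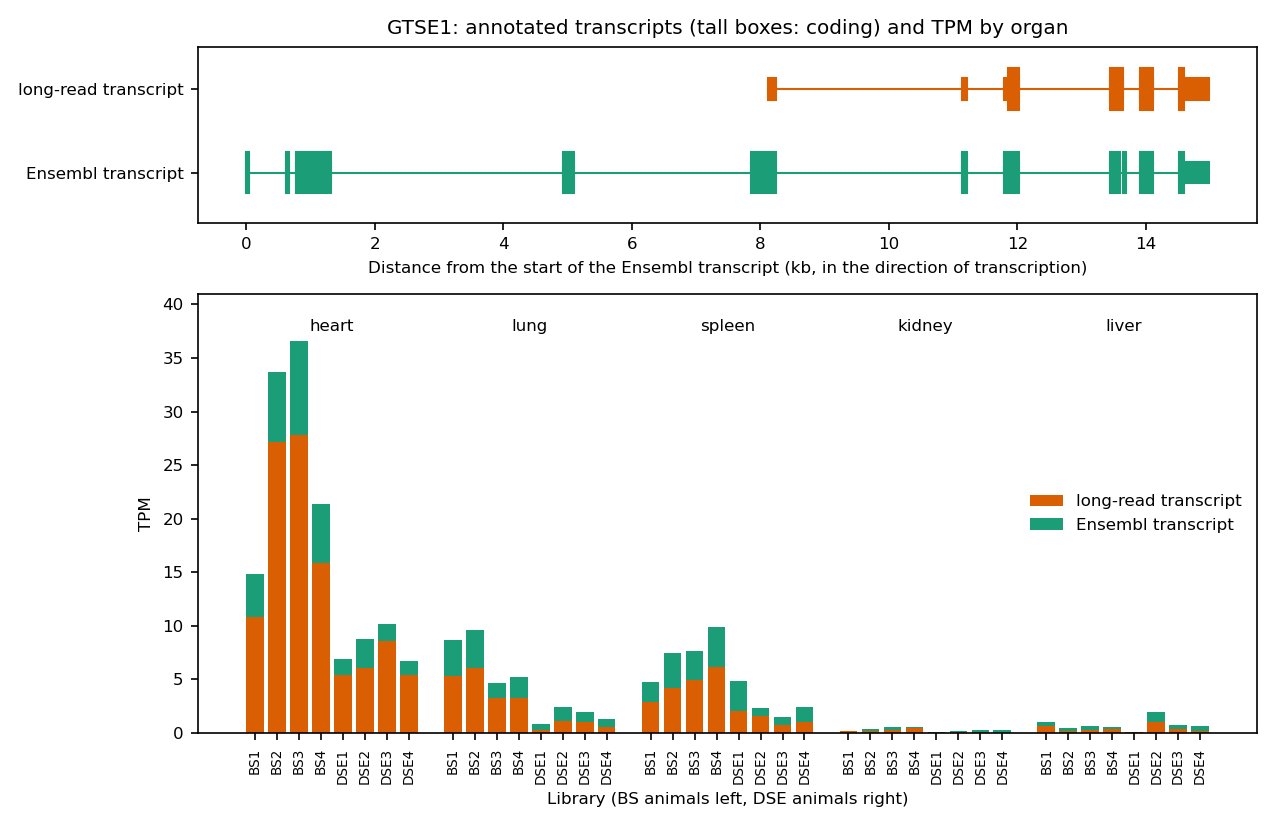
Top, the exons of the 2 GTSE1 transcripts by distance in kb from the start of the Ensembl transcript, and bottom, TPM of each transcript stacked for every library, with heart on the left and BS left of DSE in each organ. The 4 BS hearts, at 14.8 to 36.6 TPM, lie above all other libraries, and the long-read transcript makes up 69.2% to 85.1% of each heart bar.

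The full-length PacBio counts come from a second library type, with 1 library per organ and pig group, so they carry no replicate check. Of the 37 genes 18 have a long-read transcript to which reads were assigned, and 19 have none and no value. Without GTSE1, the genes took 270 of 413376 full-length reads in lung, or 65.3 per 100000 (exact Clopper-Pearson 95% interval 57.8 to 73.6, counting error only), and 214 of 263839 in spleen, or 81.1 per 100000 (70.6 to 92.7). They took 12.8 per 100000 in heart, 15.7 in kidney and 9.22 in liver. TOP2A had 31 reads in lung, 29 in spleen, 6 in heart, 4 in liver and 0 of 624922 in kidney, where the exact interval reaches 0.590 per 100000 and a limit of 3 reads would be 0.480. In both kinds of library, then, the genes were higher in lung and spleen than in the other 3 organs. MCM7 gave 216 of the reads over all organs.

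Genes around the 37 in the same pathway, in 5 lists, were mostly placed alike, read beside the 68.2% of all genes higher in lung, and the 52.0% higher and 28.1% lower in spleen. All 22 other replication factors found of 24 and all 30 other mitosis genes found of 33 were higher in lung and higher in spleen, with medians of 1.11 and 1.29 in lung and 1.23 and 1.41 in spleen, beside 0.53 and 0.23 for all genes. Of 12 G1 and S cyclins and kinases, 12 were higher in lung, and in spleen 9 were higher and 1 lower. Of 19 genes found of the RB, E2F and DREAM transcription list, which switches the cycle genes on and off, 17 were higher in lung and 0 lower, and 18 were higher and 1 lower in spleen. Of 7 cyclin-dependent kinase inhibitors, which hold cells back from division, 7 were higher in lung with a median of 1.17, and in spleen 5 were higher and 2 lower, of which the lower share is that of all genes.

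Within these lists TK1, a thymidine kinase, averaged 25.5 TPM in lung, and UHRF1, which copies DNA methylation behind the fork, 9.28 TPM in lung. MYBL2, an activator of mitotic genes, averaged 24.5 ± 12.2 TPM in spleen and 12.4 in lung, and E2F2 7.84 TPM in spleen. CCND2, a D-type cyclin, averaged 32.4 TPM in spleen and CDC25B, a phosphatase that activates CDK1, 41.3 TPM in spleen. DLGAP5 and RACGAP1, of the spindle and midzone, averaged 12.6 and 11.7 TPM in spleen. Of the 5 lists the inhibitors had the highest median in lung against spleen, 0.46 beside 0.10 for all genes, and CDKN2B averaged 23.7 ± 8.67 TPM in lung, 2.46 in spleen, 0.495 in heart, 0.287 in kidney and 0.165 in liver. CDKN1A, the p53 target p21, averaged 72.1 ± 30.2 TPM in lung.

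The same lists were compared between the pig groups, beside the 15% of all genes higher and 30.3% lower in BS lungs. In lung the other mitosis genes had 13 higher and 2 lower in BS and the other replication factors 9 higher and 6 lower, with medians of 0.44 and 0.32 beside -0.12 for all genes. The RB, E2F and DREAM list had 6 higher and 8 lower, the G1 and S list 2 higher and 1 lower, and the inhibitors 1 higher and 2 lower. The inhibitors in both directions and the higher G1 and S genes were at about the share of all genes. In spleen the other mitosis genes had 7 higher and 1 lower and the other replication factors 5 higher and 5 lower, beside 10.2% and 14.8% of all genes. Among the named genes, MYBL2 was 1.41 higher in BS lungs (adjusted p = 2.3e-04), TK1 1.83 higher (adjusted p = 0.0023) and UHRF1 1.28 higher (adjusted p = 1.2e-04).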

How the data were processed

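RNA-seq levels were deposited by the authors as TPM per gene and per transcript, and full-length PacBio reads as counts per long-read transcript. The submitters' processing notes name STAR 2.7.10a, Salmon 1.10.1 and build susScr11, and the header of the annotation names rtracklayer 1.58.0. TPM keeps no depth, so the precision of low values is unknown. Groups and animal numbers come from the sample titles. Titles alone mark the animals as separate. The p-values measure a spread between animals that is pooled for each gene over all organs and pig groups. It is not the spread within the organ tested, and GTSE1 had a standard error of 0.27 in every organ in the main fit. A gene that varies more in some organs than in others can therefore have a p-value too small or too large for a given organ.

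From there log2(TPM + 1) was fitted with limma 3.58.1 (R 4.3.3, trended variance) on 10 organ and pig group means over 40 libraries, for the 18977 genes that averaged 0.1 TPM or more, and p-values were adjusted over all of them. The same code was tested on simulated data. Full-length counts were described with exact intervals, without a test. Libraries with the same code and number were read as 1 animal, and a replicate block for it was an alternative. Other alternatives were the pseudocount, the filter, median-ratio scaling, removal of the mitochondrial genome, each pig group alone and leaving out animals.

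Named in full were TOP2A, CDK1, PCNA and GTSE1, the highest and lowest gene of each role, genes not highest in spleen, the best-supported pig group difference per organ, 2 genes per pathway list and the 5 genes most like GTSE1. Others were named after their values were seen. The members and lists were chosen with earlier results of these data known. A further 45 columns, of a code not analysed here, were not used. No sequence was used. The levels of single marker genes are in part not reported here.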

Additional observations from a re-analysis of the deposited data

Results flagged for a closer look

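Single libraries far from the other 3 of their organ and pig group were found for 12 of 110 groups of 4 tested, where chance gives about 1 in 20. The groups share libraries, and TOP2A and CDK1 also enter the sums, so the 12 are not independent of each other. The BS1 liver was the high one in 6 of them. It had 18.8 TPM summed over the cyclins and kinases (the other BS livers 3.44 to 3.78), 7.86 over the anaphase-promoting complex partners (1.17 to 2.08), 9.02 over the chromosome structure and passenger genes (1.85 to 2.18), 5.0 over the kinetochore genes (0.899 to 1.39), 3.34 TPM of TOP2A (0.4661 to 0.548) and 4.63 TPM of CDK1 (0.713 to 0.941).

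Among DSE livers, DSE1 was low in the cyclins and kinases at 2.10 TPM (the others 3.31 to 3.52), DSE4 was high in the anaphase-promoting complex partners at 1.16 TPM (0.590 to 0.639), and DSE3 was high in TOP2A at 0.599 TPM (0.191 to 0.247). The DSE3 kidney was high in the spindle genes at 14.9 TPM (11.4 to 11.8), the BS4 heart in PCNA at 10.8 TPM (8.65 to 8.96) and the DSE2 lung in CDK1 at 16.5 TPM (9.20 to 9.62).

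On the log2(TPM + 1) scale the BS to DSE difference varied among the 5 organs for GTSE1 (limma F test, adjusted p = 0.0054) and MCM2 (adjusted p = 0.0444). The F test is given at no other pseudocount and not without the BS1 and BS2 lungs, so its dependence on them is not known.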

How the results depend on the processing

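The count of genes higher in lung and in spleen and lower in heart and liver stayed within 1.5 times of 36 under every alternative run. With the replicate block for the animal the counts were 36 in lung and spleen, 36 lower in heart and liver, 1 higher and 32 lower in kidney, and 2 higher and 10 lower in lung against spleen. No label states that the same code and number mark 1 animal across organs. Residuals of such libraries correlated at a median of 0.126 (-0.103 to 0.471, 49 of 80 pairs over 0.1), against -0.0459 for different numbers of the same pig group. Residuals were taken from the mean of each organ and pig group. That ties the second value to the first and pulls it below 0, so it is no independent comparison. No paired analysis was possible for BS against DSE because the same number marks different animals in the 2 groups. Genes higher in kidney, 1 in the main analysis, were 0 with median-ratio scaling and 0 in BS animals alone, and genes higher in liver, 0 in the main analysis, were 1 with median-ratio scaling. That scaling moved the median of all genes from 0.53 to -0.05 in lung, 0.23 to -0.08 in spleen, -0.55 to -0.12 in heart and -0.64 to -0.11 in liver. It reversed 4 results, NUSAP1 (0.33, adjusted p = 0.0067), PRC1 (0.24) and ECT2 (0.15) in liver and ANLN (0.073) in heart.

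Genes higher in lung than spleen were 1 with median-ratio scaling, beside 26.5% of all genes, and 1 in BS animals alone, beside 26.9%. The count was also 1 without the BS1 and BS2 lungs, beside 37.3%. That alternative was chosen after seeing the data, as was leaving out the BS1 liver. Genes lower in lung than spleen were 3 with a pseudocount of 0.1 TPM, beside 19.1% of all genes, and 1 in BS animals alone, beside 14.3%. They were 16 without the BS1 and BS2 lungs, beside 17.8%, and 2 to 15 leaving out 1 animal at a time, beside 17.3% to 20%. With median-ratio scaling they were 16, beside 32.7%. All genes split 6972 higher to 3736 lower in lung against spleen, and 4987 to 6136 with that scaling.

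Between BS and DSE, heart had 1 higher and 4 lower without the mitochondrial genome, beside 9.48% and 14.5% of all genes, against 1 and 2. Leaving out 1 animal gave 0 to 1 higher and 1 to 2 lower in BS kidneys, beside 14.1% to 18.1% and 7.99% to 17.3% of all genes. In liver it gave 1 to 3 higher, beside 11% to 14.2%, and 1 lower, beside 4.43% to 7.95%. In lung it gave 14 to 24 higher, beside 12.4% to 14.9%, and in spleen 4 to 17, beside 7.83% to 10.1%. In liver there were 15 calls with a pseudocount of 0.1 TPM and 8 with median-ratio scaling, against 3, in lung 5 without the BS1 and BS2 libraries, against 20, and in spleen 4 with a pseudocount of 0.1 TPM, against 11. The causes were not tested. Of 230 results for single genes 176 kept their side of the threshold and direction throughout.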
